A study of Mus musculus with 32 samples.

Results

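The host genotype effect is the difference in a gene's RNA level between mice that lack Clic4 (KO) and wild-type (WT) mice. It was measured here in the primary tumor and in the lung of tumor-bearing mice, and the question was which of these effects differed between the 2 tissues. The material was the 24 samples taken 14 days after implantation, out of 32 in the series, with 6 tumors from KO hosts, 6 tumors from WT hosts, 6 lungs from KO hosts and 6 lungs from WT hosts. Of 29511 genes in the count table, the 13095 that were expressed in both tissues were compared. A gene's effect was called limited to the tumor when the KO to WT difference passed an FDR of 0.05 in the tumor and not in the lung, and the difference between those 2 effects also passed it. Limited to the lung is the converse, and common means called in both tissues in the same direction.

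All hosts were female FVB/N mice, virgin littermates of 6 to 8 weeks of age at implantation, and those sampled at 14 days had received 6DT1 cells in the fourth mammary fat pad. Whether a tumor and a lung with the same number came from the same mouse is not given in the sources used here. 6DT1 is a mouse mammary tumor line from an FVB mouse carrying a Myc transgene. The implanted cells carry intact Clic4 in both kinds of host, so in tumors the genotypes differ only in the host's own cells, whereas the lungs were taken at a pre-metastatic time. The KO is constitutive, so every host cell lacks the gene from conception, and it was bred onto FVB/N from a mixed background, with purity checked by microsatellites according to the study's text. Only the region around exon 2 was removed, so RNA from the rest of the gene is still counted in KO tissue. A further 8 lungs from mice without a tumor, 4 KO and 4 WT, served as control lungs.

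Clic4 encodes a small protein that moves between soluble and membrane-bound forms and is abundant in endothelium and activated fibroblasts. Many genes below belong to the response to interferon gamma, a cytokine that T cells and natural killer (NK) cells release. Binding of interferon gamma to its receptor activates the kinases Jak1 and Jak2. The signal switches on Irf1, a transcription factor, and with it the genes that cut, transport and present antigen on MHC molecules and the GTPases of the guanylate-binding and immunity-related families.

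The 24 libraries ranged from 4446323 to 6518501 gene counts. The typical (median) standard error (SE) of a log2 fold change was 0.12 in tumors, 0.12 in lungs and 0.17 for the difference between tissues. The lung label held against markers: the surfactant gene Sftpc lay at 4241 to 5652 CPM (counts scaled to a common library total, TMM-normalized) in KO and 4618 to 5163 in WT lungs and at no more than 0.46 CPM in any tumor. The 6 epithelial markers did not mark the tumor as a set. The keratin genes Krt8 and Krt18 were higher in all tumors than in all lungs (Krt8 at 262 to 425 against 68.6 to 125 CPM), and Krt7, Krt19, Epcam and Cdh1 were lower in all tumors than in all lungs (Cdh1 at 5.88 to 45.03 against 212 to 252 CPM). A few libraries stood apart. KO lung 2 and WT lung 5 had by far the highest level of a list of antiviral interferon genes, and WT tumor 2 the highest level among tumors of a list of B cell genes. For several lists, counts are also given without these libraries. The libraries were picked after their levels were seen, so those counts are a description.

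In tumors, 399 genes were higher (3.05% of the genes tested) and 137 lower (1.05%) with a KO host (edgeR quasi-likelihood test, FDR 0.05), together 4.09%. In lungs, 4 were higher (0.0305%) and 3 lower (0.0229%), together 0.0535%. The difference between the 2 effects passed the same threshold for 110 genes, or 0.84%, of which 84 (0.641%) had the more positive effect in the tumor and 26 (0.199%) the more negative. From these calls, 101 genes (0.771%) were limited to the tumor, with 79 higher and 22 lower in tumors of KO hosts. Without 1 library at a time the differences numbered 46 to 190 and the genes limited to the tumor 41 to 174, and leaving out any of 11 of the 24 libraries moved the count of differences by over 1.5 times (each is named in the closing section). Only Clic4, Sepn1 and Cdk19 were limited to the lung, and 1 gene, Pnrc2, was common to both. No gene was called in opposite directions by edgeR or by DESeq2. At an unadjusted p under 0.05 in both tissues, 104 genes moved in the same direction and 58 in opposite ones. A further 434 genes were called in the tumor without a called difference from the lung, 320 higher and 114 lower, and these cannot be assigned to a tissue. Likewise 3 genes were called in the lung without a called difference, and 5 had a called difference without being called in either tissue. At that unadjusted level 2310 genes had a tumor effect, 754 a lung effect and 1511 a difference. Over all genes, Pearson's r of the tumor effect with the lung effect was 0.045, as a description across genes, which are not independent.

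**Figure D1:**
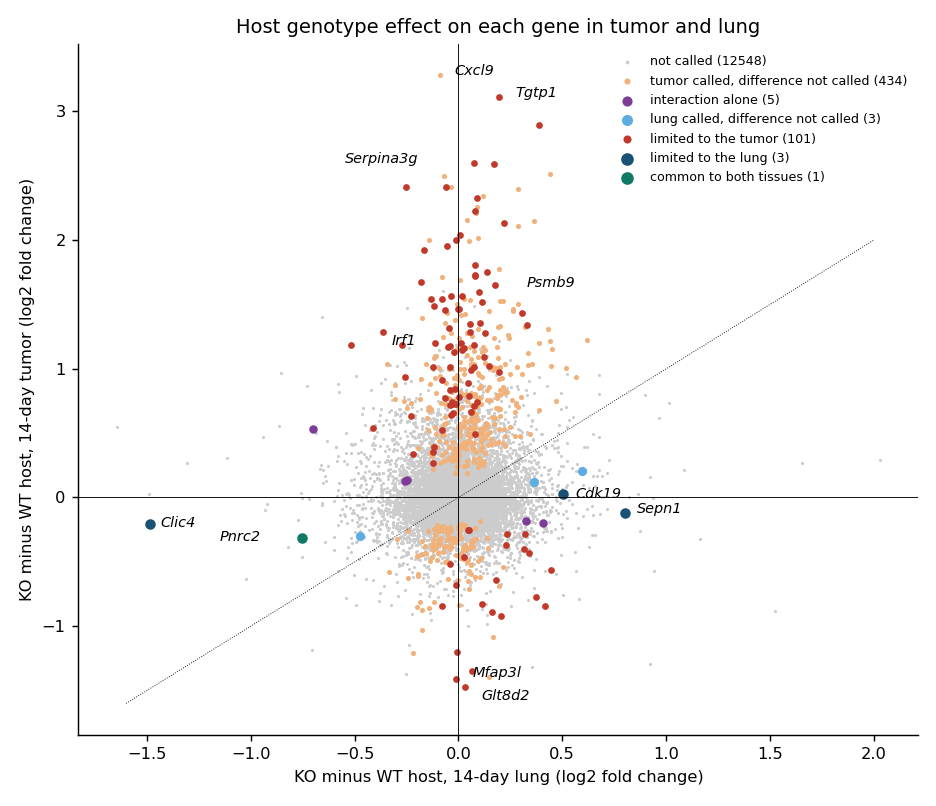
Host genotype effect of each of 13095 genes, as the KO minus WT log2 fold change in 14-day lungs (horizontal axis) and 14-day tumors (vertical axis), 6 libraries per group. Colors mark the classes, the dotted line marks equal effects, and the 101 genes limited to the tumor lie along the vertical axis with lung effects between -0.52 and 0.45.

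For the 79 genes that rose in KO tumors with an effect limited to the tumor, the median tumor effect was 1.19 on the log2 scale (range 0.27 to 3.11), and 52 of them differed at least 2-fold. Their median lung value was 0.00028, with 40 of 79 higher and 39 lower in KO lungs. The 95% interval of the lung effect stayed within a 1.5-fold change in either direction for 57 of the 79, and for the other 22 the lung data leave room for a larger change. The 22 genes that fell had a median tumor effect of -0.66 (range -1.47 to -0.25) and a median lung effect of 0.14, and for 18 of them the lung interval stayed within 1.5-fold. Among all 13095 genes, the median effect was -0.0096 in tumors and 0.0037 in lungs. Every KO tumor lay above every WT tumor for 69 of the 79, against 1.45% of all genes, and below for 8 of the 22, against 0.489%. In lungs the genotypes separated in 1 of the 101, lower in KO, against 0.267% of all genes in each direction. The rule chose these genes for a called tumor effect, an uncalled lung effect and a called difference, so all these tumor and lung values, with their signs, intervals and overlaps, are a description and support nothing. In 24 fits that each left out 1 library, the difference kept its sign for all 101 and was called in every fit for 38. In bulk tissue, fewer cells of a type and less RNA per cell cannot be told apart.

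Irf1, the transcription factor that interferon gamma switches on, and Phactr1 had the smallest p for the difference among genes limited to the tumor. Irf1 lay at 103 CPM in the lowest, 138 in the median and 147 in the highest KO tumor, and at 51.5, 57.0 and 69.4 in WT tumors. Every KO tumor was above every WT tumor. KO lungs lay at 97.1, 115 and 151 CPM and WT lungs at 99.7, 115 and 129, so the lungs overlapped throughout. The tumor effect was 1.16 (SE 0.11, FDR 4.69e-07), the lung effect 0.029 (95% interval -0.18 to 0.24) and the difference 1.13 (SE 0.15, FDR 1.32e-04).

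Upstream of Irf1, the kinase Jak2 was also limited to the tumor, with an effect of 0.50 (SE 0.065) against 0.079 in lungs (difference FDR 0.0257). Its KO tumors, at 101 to 129 CPM, were all above the WT tumors at 73.9 to 97.6. Irf8 and Socs3 rose in KO tumors by 0.72 and 0.73, and their differences from the lung were not called. The receptor subunits Ifngr1 and Ifngr2 had tumor values of 0.27 and 0.21 that were not called. Of the 15 interferon gamma signaling genes expressed in both tissues, 7 rose in KO tumors against 3.05% of all genes, none fell, none was called in lungs, and 4 had a difference called and were limited to the tumor, against 0.771%. Besides Irf1 and Jak2 these 4 were Nlrc5 and Ciita, the regulators that switch on MHC class I and class II genes. Without the 2 lungs that stood apart, 8 of the 15 rose and 6 had a called difference. In that fit 432 genes in all rose and 128 had a called difference. Those lungs were picked for high interferon genes, so these counts support nothing. Nlrc5 lay at 141, 215 and 299 CPM (lowest, median, highest) in KO tumors and at 43.8, 64.2 and 76.6 in WT tumors, without overlap, and at 39.4 to 98.02 and 29.9 to 102 in KO and WT lungs. Its difference was 1.62 (SE 0.37, FDR 0.0350) and was not called in 13 of the 24 fits that each left out 1 library.

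Antigen processing and MHC class I genes moved together in the tumor. Of 19 such genes, 17 rose in KO tumors against 3.05% of all genes, none was called in lungs, and 11 were limited to the tumor, against 0.771%. Without the 2 lungs that stood apart, which were picked for high interferon genes, 19 rose and 13 had a called difference. In that fit 432 genes in all rose and 128 had a called difference, and these counts are a description. The median effect was 1.02 in tumors and 0.093 in lungs. Psmb9 encodes a subunit of the immunoproteasome, which cuts proteins into peptides for presentation. It lay at 56.6, 76.1 and 96.8 CPM in KO tumors, at 18.5, 25.0 and 28.9 in WT tumors, at 20.1, 27.2 and 39.8 in KO lungs and at 18.2, 25.0 and 32.9 in WT lungs. The WT tumors thus overlapped both groups of lungs, and all KO tumors lay above all other samples. The difference between tissues was 1.48 (SE 0.22, FDR 0.00108). The other immunoproteasome subunits Psmb8 and Psmb10 rose by 1.32 and 0.79 in KO tumors.

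The peptide transporter subunits Tap1 and Tap2 rose by 1.52 and 1.28 in KO tumors, with lung effects of 0.11 and 0.13. Tap2 lay at 88.1 to 148 CPM in KO and 38.5 to 59.1 in WT tumors, without overlap, and at 46.2 to 75.2 and 41.5 to 63.1 in KO and WT lungs, which overlapped. The MHC class I heavy chains H2-K1, H2-D1, H2-Q7 and H2-T23 rose by 1.18, 1.02, 1.54 and 1.01, all limited to the tumor. These heavy chain genes are close copies of each other, and RSEM divides the reads they share, so the split among them is uncertain. B2m, the invariant light chain, rose by 0.95 (SE 0.15) with a lung value of 0.10, and its difference fell just short (FDR 0.0588). Psme1 and Psme2, the proteasome activator subunits, had tumor values of 0.37 and 0.41 that were not called.

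Of 8 MHC class II genes, 7 rose in KO tumors, against 3.05% of all genes, with a median effect of 1.23, and H2-Ab1 was the single one limited to the tumor. All 8 also had a lung value above 0, with a median of 0.33, and none was called there (1 had an unadjusted p under 0.05, and DESeq2 called none). H2-Ab1, the beta chain of the class II molecule, lay at 222, 297 and 448 CPM in KO tumors and 53.1, 123 and 178 in WT tumors, without overlap. It lay at 178, 202 and 230 CPM in KO lungs and 151, 164 and 178 in WT lungs, where the groups barely met. The tumor effect was 1.43 (SE 0.19), the lung value 0.31 (95% interval -0.069 to 0.69) and the difference 1.12 (SE 0.26, FDR 0.0350), which was not called in 12 of the 24 fits without 1 library.

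The guanylate-binding proteins and immunity-related GTPases, which attack vacuoles that hold microbes, had the largest list medians in the tumor. All 12 measured guanylate-binding genes rose in KO tumors, with a median of 2.14 against 0.087 in lungs, and 4 were limited to the tumor. Over all genes, 3.05% rose and 0.771% were limited to the tumor. One symbol in this list, Gbp6, covers 2 gene identifiers, which were counted separately. Of 8 immunity-related GTPase genes, 7 rose, with a median of 1.996 against 0.041, and 3 were limited to the tumor, to be read against the same shares. Gbp5 lay at 35.8, 70.2 and 106 CPM in KO tumors and 11.6, 14.1 and 23.9 in WT tumors, without overlap. In lungs it lay at 10.5, 18.3 and 52.4 CPM with a KO host and 13.2, 17.96 and 41.0 with a WT host. The difference was 2.15 (SE 0.47, FDR 0.0251).

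KO lung 2 was the highest KO lung in both of these lists, and WT lung 5 the highest WT lung, at list levels of 5.95 against at most 4.77 in the other WT lungs for guanylate-binding proteins and 6.45 against 5.28 for immunity-related GTPases. Without those 2 lungs, 10 of the 12 guanylate-binding genes and 8 of the 8 immunity-related GTPases had a called difference between tissues. With all libraries 4 and 3 had one. Over all genes, 128 had one without the 2 lungs and 110 (0.84%) with all libraries. The 2 lungs were picked after the data were seen, for high levels of interferon genes, so these counts are a description and support nothing. Close copies such as Tgtp1 and Tgtp2, which rose by 3.11 and 2.59 in KO tumors, share reads and are uncertain one by one.

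**Figure D2:**
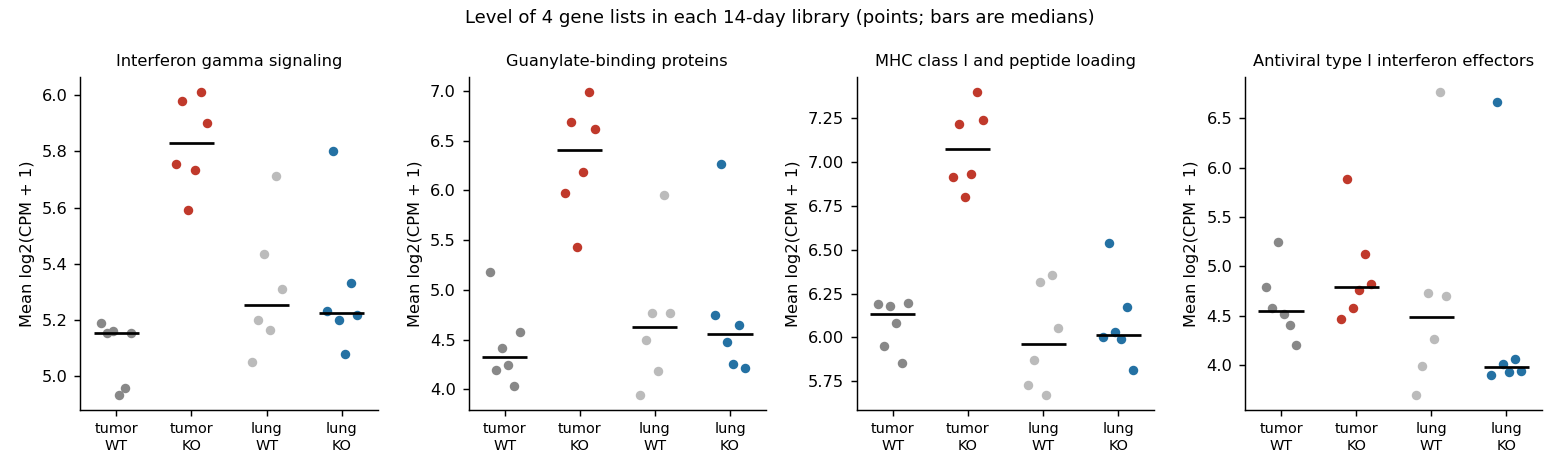
Mean log2(CPM + 1) of 4 gene lists in each 14-day library, by tissue and host genotype, with the median of each group as a bar (n = 6). For interferon gamma signaling the KO tumors lie at 5.59 to 6.01 and the WT tumors at 4.93 to 5.19, while KO lung 2 and WT lung 5 stand at 6.66 and 6.76 in the antiviral list against 3.70 to 4.73 in the other lungs.

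The antiviral list (effectors such as Ifit2, Oas3 and Bst2, which respond above all to type I interferon) held no called gene. Of its 19 genes none was called in tumors, in lungs or for the difference by edgeR. Over all genes 4.09%, 0.0535% and 0.84% were called, shares so low that 0 of 19 is near them. None of the 19 had an unadjusted p under 0.05, and DESeq2 called none. Its median was 0.40 in tumors and -0.20 in lungs, and the counts of this list were not tested against those of the others. All 19 values were above 0 in tumors and 3 of 19 in lungs, against 6243 and 6740 of 13095 genes. Bst2, for example, had a tumor value of 0.57 (SE 0.39). Without the 2 lungs that stood apart, 1 gene was called in tumors and the same number for the difference, and the lung median was -0.44.

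Other genes among those with the smallest p for the difference were Serpina3g and Serpina3f, which encode protease inhibitors, Icam1, the adhesion molecule that leukocyte integrins bind, Tnfsf10, which encodes the death ligand TRAIL, and Pla2g16, which encodes a phospholipase. Icam1 lay at 27.2, 36.7 and 41.6 CPM in KO tumors and at 10.9, 15.9 and 21.6 in WT tumors, without overlap. In lungs, where endothelium and epithelium express it strongly, it lay at 314 to 356 CPM in KO and 298 to 386 in WT samples. Its tumor effect was 1.13 (SE 0.13), its lung effect -0.019 (95% interval -0.24 to 0.20) and its difference 1.15 (SE 0.17, FDR 7.36e-04).

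Serpina3g lay at 36.7, 43.0 and 49.8 CPM in KO tumors and 3.69, 6.37 and 14.0 in WT tumors. Its lungs lay at 6.94 to 13.8 CPM with a KO host and 5.17 to 15.04 with a WT host, so the KO tumors alone stood apart. The difference was 2.53 (SE 0.36, FDR 7.10e-04), and Serpina3f differed by 2.24 (SE 0.33). Both belong to a cluster of close copies on chromosome 12 between which reads can be split wrongly. Tnfsf10 lay at 19.5 to 41.8 CPM in KO and 6.38 to 11.4 in WT tumors, against 131 to 255 and 141 to 199 in lungs. Pla2g16 rose by 1.36 (SE 0.14) in KO tumors.

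Phactr1, which regulates actin and phosphatase activity, lay at 5.30, 7.72 and 10.7 CPM in KO tumors and 1.67, 2.81 and 3.79 in WT tumors. The groups did not overlap, at a level far below the 88.6 to 104 CPM of KO lungs and 92.2 to 109 of WT lungs. Its difference was 1.52 (SE 0.19, FDR 1.32e-04). On log2(FPKM + 1), a scale that shrinks changes at low levels, its difference was 0.62 (FDR 0.221).

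The promoters of the 6 genes limited to the tumor with the smallest p for the difference were read from RefSeq (GRCm38.p6, 250 bases before to 50 after the gene start, and the most upstream start where a gene had several). They are shown because 4 of the 6 hold a motif known from interferon-responsive promoters. The motifs searched on both strands were TTCNNNGAA, the core of an interferon gamma-activated site, which reads the same on both strands, and GAAANNGAA, the core of an interferon-stimulated element. Capitals mark matches. The first motif lies at bases -90 to -82 of Irf1 (chr11:53769764-53770063, plus strand), -42 to -34 of Icam1 (chr9:21015690-21015989, plus), -33 to -25 of Serpina3g (chr12:104235897-104236196, plus) and -121 to -113 of Serpina3f (chr12:104214294-104214593, plus), counted with the start at 0. Serpina3f also matches the second motif on the minus strand, at -127 to -119, which overlaps its match to the first.
Irf1: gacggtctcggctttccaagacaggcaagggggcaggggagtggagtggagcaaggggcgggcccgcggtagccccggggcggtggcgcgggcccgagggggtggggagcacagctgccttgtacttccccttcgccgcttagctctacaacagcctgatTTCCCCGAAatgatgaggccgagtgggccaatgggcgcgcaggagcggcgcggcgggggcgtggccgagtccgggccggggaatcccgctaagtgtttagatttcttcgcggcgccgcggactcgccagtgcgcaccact
Icam1: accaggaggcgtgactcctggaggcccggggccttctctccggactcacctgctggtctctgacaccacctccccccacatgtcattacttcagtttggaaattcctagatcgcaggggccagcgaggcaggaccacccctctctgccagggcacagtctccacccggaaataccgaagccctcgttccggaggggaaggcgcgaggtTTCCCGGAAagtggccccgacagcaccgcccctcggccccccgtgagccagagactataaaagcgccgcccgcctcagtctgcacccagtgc
Serpina3g: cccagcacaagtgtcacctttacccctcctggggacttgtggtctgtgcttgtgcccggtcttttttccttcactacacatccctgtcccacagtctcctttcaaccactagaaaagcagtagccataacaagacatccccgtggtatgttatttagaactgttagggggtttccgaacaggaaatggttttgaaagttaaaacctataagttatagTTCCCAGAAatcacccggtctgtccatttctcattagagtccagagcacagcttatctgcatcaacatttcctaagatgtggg
Serpina3f: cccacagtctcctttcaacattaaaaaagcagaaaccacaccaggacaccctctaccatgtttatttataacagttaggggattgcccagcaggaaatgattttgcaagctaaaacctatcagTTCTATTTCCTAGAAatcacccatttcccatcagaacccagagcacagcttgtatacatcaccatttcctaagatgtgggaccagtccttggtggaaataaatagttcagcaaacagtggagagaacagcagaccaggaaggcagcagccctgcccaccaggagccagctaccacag

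Phactr1 and Psmb9 held neither motif in these 300 bases, which says only that these letters are not in this window. Over all 27025 genes with a promoter in the table, 8.42% held TTCNNNGAA and 8.58% held GAAANNGAA. Of the 79 genes that rose only 52 had a promoter in the table, under 80%, so a share over them is void and is not given.

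Genes of T cells and NK cells were measured at low levels in tumors. Of 14 T cell genes, 4 rose in KO tumors (Cd3d, Cd3e, Cd3g and Zap70) against 3.05% of all genes, with a median over the list of 0.86 in tumors and 0.10 in lungs. At an unadjusted p under 0.05, 12 of the 14 had a tumor effect, against 2310 of 13095 genes, and DESeq2 called 6. Zap70, the kinase that relays the T cell receptor signal, was limited to the tumor. It lay at 2.36, 2.82 and 4.20 CPM in KO tumors and 0.60, 1.08 and 1.52 in WT tumors, without overlap, and at 2.83 to 6.44 and 3.32 to 5.66 in KO and WT lungs. Its difference was 1.60 (SE 0.31, FDR 0.0115). Zap70 passed the expression filter in tumors only through the KO group, where it was high. Its lack of overlap and its call are thus a description and support nothing. Without WT tumor 2, the tumor with the high B cell level, and the 2 lungs that stood apart, 12 of the 14 T cell genes rose in KO tumors and the median was 1.21. Without the 2 lungs alone 4 rose, so the larger count came with leaving out WT tumor 2. That tumor was picked after its values were seen, so this count supports nothing.

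Of 9 cytotoxic and NK genes, Nkg7 and Klrk1 rose in KO tumors (3.05% of all genes did), by 1.35 and 1.18. All 9 had a lung value below 0, with a median of -0.25, and none was called there by edgeR or DESeq2. Klrk1, which encodes the activating receptor NKG2D, was limited to the tumor, at 8.3, 13.8 and 17.2 CPM in KO and 3.002, 4.73 and 10.9 in WT tumors, which overlapped. Its lung value was -0.52 (95% interval -1.05 to 0.019), and the difference was 1.70 (SE 0.38, FDR 0.0273). It was not called in 8 of the 24 fits without 1 library, nor was any gene of this list without the 2 lungs that stood apart. The summed T cell list level, a mean log2(CPM + 1), ranged from 2.21 to 2.96 in KO tumors and 1.37 to 2.78 in WT tumors, and the NK list level from 2.10 to 2.52 and 1.46 to 2.28. The part of these cells in the interferon gamma genes was not tested.

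Of 5 checkpoint genes expressed in both tissues, 2 rose in KO tumors, against 3.05% of all genes, and none was called in lungs by edgeR or DESeq2, or had an unadjusted p under 0.05 there. Cd274, which encodes PD-L1, was limited to the tumor, at 43.7, 54.8 and 128 CPM in KO and 16.1, 19.3 and 28.2 in WT tumors, without overlap. It lay at 19.0 to 47.9 CPM in KO and 18.9 to 49.3 in WT lungs. The difference was 1.65 (SE 0.38, FDR 0.0344), and it was not called in 12 of the 24 fits without 1 library. Ctla4, an inhibitory receptor of T cells, rose by 1.28 in KO tumors without a called difference. Of the others, Havcr2 and Cd86 had tumor values of 0.58 and 0.54 and Btla, another inhibitory receptor, one of -0.47 with a lung value of 0.24, none called. Of 5 chemokines expressed in both tissues, 3 rose in KO tumors (Cxcl9, Cxcl12 and Cxcl16), and none was called in lungs or for the difference by edgeR. Ccl5 had a tumor value of 1.26 and Cx3cl1 one of -0.20, neither called. DESeq2 called 4 of the 5 in tumors, 0 in lungs and 1 for the difference. Cxcl9, a chemokine that draws T cells and is a classical interferon gamma target, had the largest tumor effect of the genes tested, 3.28 (SE 0.40), at 47.6, 83.4 and 162 CPM in KO and 3.002, 6.40 and 29.9 in WT tumors, without overlap. In lungs it lay at 0.37 to 3.39 CPM with a KO host and 0.19 to 3.56 with a WT host, and with an SE of 0.86 the difference of 3.37 was not called (FDR 0.0632). At this depth the lung effect of Cxcl9 has a 95% interval of -1.62 to 1.44. Of 13 macrophage genes, 2 rose in KO tumors (against 3.05% of all genes), Nos2 and C1qb, and none was called in lungs or for the difference. The other 11 had tumor values on both sides of 0, from -0.43 for Mertk, which encodes a receptor for the uptake of dead cells, to 0.66 for Fcgr1, an antibody receptor gene, and the list median was 0.46. At an unadjusted p under 0.05, 8 of the 13 had a tumor effect, against 2310 of 13095 genes, and DESeq2 called 3. Nos2, the inducible nitric oxide synthase of activated macrophages, rose by 2.21 (SE 0.36) in KO tumors, with no called difference from its lung value of 0.087.

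Of 22 NF-kappaB and immediate early genes, 6 rose in KO tumors, against 3.05% of all genes, and Icam1 and Nfkb1 were limited to the tumor, against 0.771%. The Nfkb1 effect was small, 0.27 (SE 0.063) against -0.12 in lungs. No gene of the endothelium, angiogenic factor, fibroblast and collagen, glycolysis and hypoxia, cell cycle or respiratory chain lists was called by edgeR in either tissue or for the difference. At an unadjusted p under 0.05, 4 of 13 endothelium genes and 3 of 11 angiogenic factors had a tumor effect, and DESeq2 called 2 and 1 of them. It called none of the other 4 lists, in which 4 of 20, 3 of 18, 0 of 17 and 1 of 18 had an unadjusted p under 0.05 in tumors. Of 20 genes of the TGF-beta pathway, Ltbp2 alone was called, higher by 0.55 in KO tumors. Over all 330 listed genes that were measured, leaving out the Clic family, 76 were called in the tumor, against 4.09% of all genes, and 29 for the difference, against 0.84%. In the lung edgeR called 0, against 0.0535%, a share so low that 0 calls is near it. There 15 had an unadjusted p under 0.05 and DESeq2 also called 0.

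**Figure D3:**
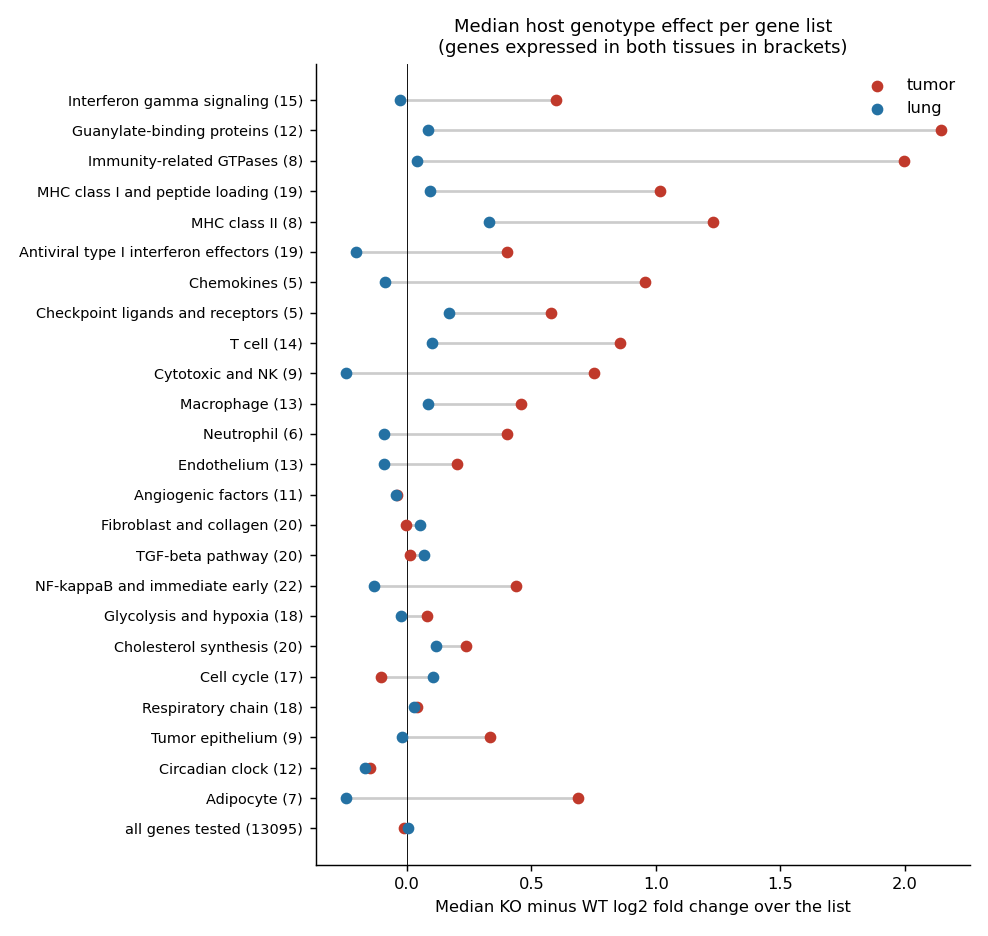
Median KO minus WT log2 fold change of each gene list with at least 5 measured genes, in 14-day tumors (red) and 14-day lungs (blue). The guanylate-binding genes have the widest gap, at 2.14 in tumors and 0.087 in lungs, and the medians of all genes tested are at -0.0096 and 0.0037.

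Of the 22 genes that fell with an effect limited to the tumor, Ocln alone was in a list. Mfap3l, Ocln, Mmp11, Pvrl3, Ccser1 and Rpl10a are described here. Mfap3l, a membrane protein gene, lay at 2.71, 5.03 and 11.8 CPM in KO and 10.2, 13.9 and 20.2 in WT tumors, which overlapped, and at 43.9 to 51.7 and 42.9 to 50.7 in KO and WT lungs. Its tumor effect was -1.41 (SE 0.20), its lung effect -0.0098 and its difference -1.40 (SE 0.26, FDR 0.00613). Ocln, which encodes the tight junction protein occludin, was the single gene that edgeR called of 9 tumor epithelium genes. Over all genes, 4.09% were called in tumors and 0.84% for the difference. Ocln lay at 2.79, 5.81 and 10.2 CPM in KO and 9.05, 12.6 and 21.2 in WT tumors, with a difference of -1.19 (SE 0.26, FDR 0.0242). DESeq2 called 2 genes of this list in tumors, and the epithelium list level lay at 2.91 to 4.29 in KO and 2.89 to 4.29 in WT tumors.

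Pvrl3, which encodes the adhesion molecule nectin-3, lay at 17.4 to 26.8 CPM in KO and 31.4 to 40.0 in WT tumors without overlap, with a tumor effect of -0.68 (SE 0.087). Its lungs lay at 153 to 164 and 152 to 169 CPM. Mmp11, a matrix metalloproteinase of tumor stroma, fell by 0.92 on the log2 scale (SE 0.18) in KO tumors with a lung value of 0.20. Ccser1 lay at 8.58 to 15.03 CPM in KO and 15.4 to 21.7 in WT tumors, with a tumor effect of -0.64 (SE 0.10) and a lung value of 0.18. Rpl10a, a ribosomal protein gene, was lower in KO tumors by 0.28 on the log2 scale and had a lung value of 0.32 (FDR 0.370). The lung value had the opposite sign and was no smaller, so the class of Rpl10a rests on the calls alone. Its tumor call held in 25 of 36 alternative fits. Rpl10a has processed pseudogenes that can share its reads.

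The level of these genes also differed between the tissues. In WT mice, 48 of the 79 genes that rose were lower in tumor than in lung, against 37.3% of all genes, and 7 were higher, against 35.8%. In KO mice, 20 were lower, against 36.0%, and 44 higher, against 35.8%. The median tumor to lung difference of the 79 was -0.75 on the log2 scale with a WT host and 0.63 with a KO host. These values share the libraries by which the genes were chosen, so they are a description only.

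Clic4 itself lay at 227, 249 and 289 CPM in KO lungs and 605, 656 and 889 in WT lungs, without overlap. In tumors it lay at 240, 253 and 267 CPM with a KO host and 281, 294 and 310 with a WT host, again without overlap and much closer together. The lung effect was -1.49 (SE 0.083, FDR 1.26e-11), the tumor effect -0.21 (SE 0.082, FDR 0.174) and the difference 1.28 (SE 0.12, FDR 5.90e-07). The tumor effect was called when tumors were fitted alone (FDR 0.0463), so its place among the genes limited to the lung depends on the joint fit. Control lungs had 210 to 257 CPM with KO and 624 to 674 with WT genotype, an effect of -1.45 (SE 0.071). Of the 5 Clic genes listed, only Clic4 and Clic1 were expressed in both tissues, and Clic1 had effects of 0.13 (SE 0.068) in tumors and 0.016 (SE 0.069) in lungs, neither called.

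Most other genes called in the lung lay close to Clic4 on chromosome 4 (GRCm38, 135213969 to 135272814). Of the 126 other measured genes within 5 Mb, 5 were called in lungs, and of 12879 genes elsewhere, beyond 10 Mb or on other chromosomes, 1 was, against 0.0535% of all genes. They included Sepn1, Pnrc2, Zfp46 and Hp1bp3. The KO allele came from a mixed background, and the sources used here do not give whether any of the microsatellites typed after the backcross lay near Clic4. A stretch of donor chromosome around Clic4, if one remains, and the loss of Clic4 cannot be told apart here. In tumors, where the implanted cells bring their own copy of this stretch, 10 of the 126 were called, against 4.09% of all genes.

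**Figure D4:**
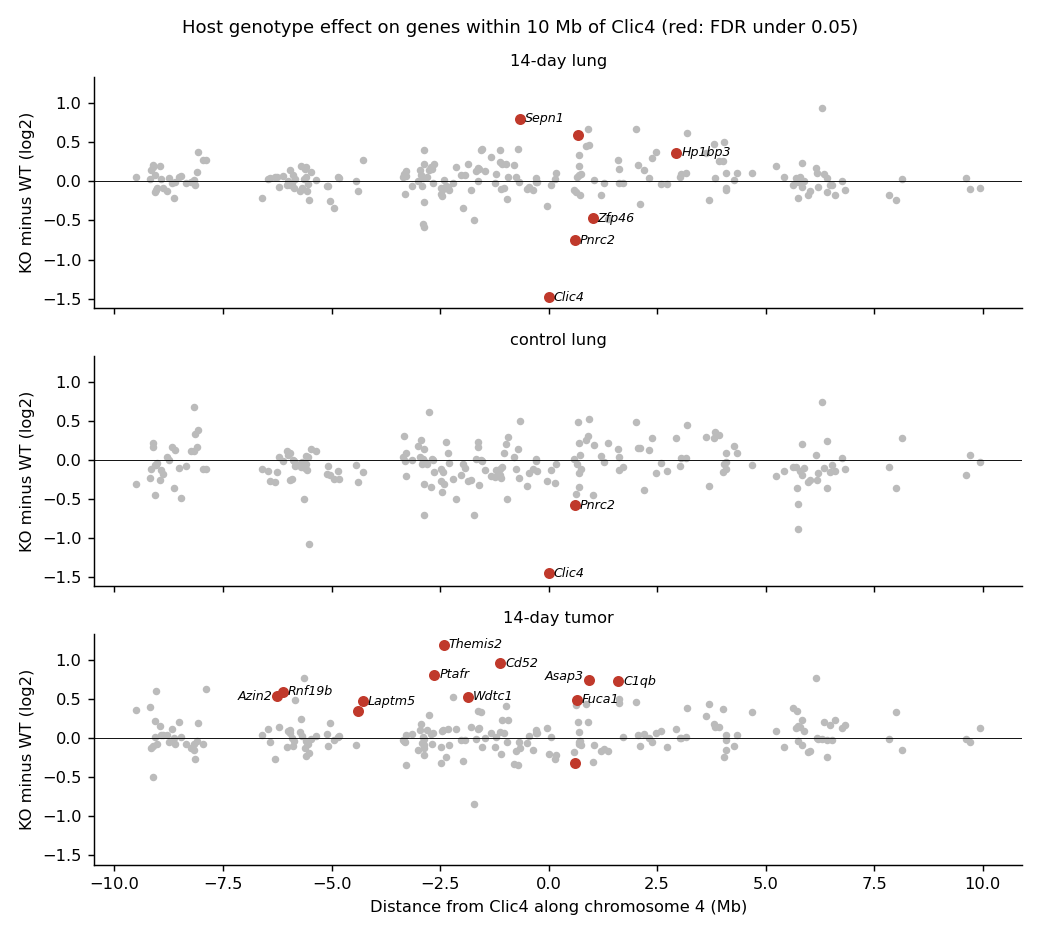
KO minus WT log2 fold change of genes within 10 Mb of Clic4 in 14-day lungs, control lungs and 14-day tumors, by distance from Clic4, with genes past an FDR of 0.05 in red. In 14-day lungs the called genes other than Clic4 lie from -0.66 to 2.94 Mb away, and in tumors Themis2, Cd52 and Ptafr are the highest called genes.

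Sepn1, which encodes a selenoprotein of the endoplasmic reticulum and lies -0.66 Mb away, was limited to the lung. It lay at 44.9, 48.3 and 50.3 CPM in KO lungs and 23.9, 28.1 and 29.6 in WT lungs, without overlap, and at 47.3 to 52.5 and 49.1 to 69.2 in KO and WT tumors, which overlapped. Its lung effect was 0.80 (SE 0.072, FDR 1.77e-07), its tumor value -0.12 and its difference -0.92 (SE 0.10, FDR 1.11e-05). In control lungs it lay at 33.8 to 42.3 CPM in KO and 26.5 to 31.9 in WT samples, with a value of 0.50 that was not called (FDR 0.102).

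Pnrc2, a nuclear receptor coactivator that also takes part in mRNA decay and lies 0.60 Mb away, was lower in both tissues of KO mice. It lay at 36.4, 42.4 and 44.4 CPM in KO lungs, 63.0, 69.5 and 80.7 in WT lungs, 40.3, 43.7 and 46.2 in KO tumors and 48.7, 54.6 and 57.2 in WT tumors. Neither pair of groups overlapped. The effect was -0.75 (SE 0.065) in lungs and -0.31 (SE 0.065, FDR 0.00482) in tumors, and the difference was also called (0.44, SE 0.092, FDR 0.0195), so the effect was larger in the lung. The control lungs had the same direction (-0.58, SE 0.086, FDR 0.0302). The deposited FPKM of Pnrc2 did not follow its counts: it ranged from 24.7 to 142 in KO and 41.4 to 152 in WT lungs, and on that scale neither effect was called (lung value 0.038, tumor value 0.69). Zfp46, a zinc finger gene 1.01 Mb away, was lower in KO lungs by 0.47 on the log2 scale and missed the threshold in tumors (-0.30, FDR 0.0693). It was called in tumors in 5 and in lungs in 25 of 36 alternative fits.

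Hp1bp3, a chromatin protein gene 2.94 Mb away, rose by 0.37 (SE 0.070, FDR 0.0380) in KO lungs. This call held in 19 of 36 alternative fits.

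Cdk19, a kinase of the Mediator complex on chromosome 10, was the one called lung gene outside this stretch. It lay at 73.0, 81.2 and 89.2 CPM in KO lungs and 48.6, 55.9 and 68.9 in WT lungs, without overlap, and at 63.6 to 75.9 and 60.4 to 78.6 in KO and WT tumors. The lung effect was 0.50 (SE 0.081, FDR 0.00423), the tumor value 0.029 and the difference -0.48 (SE 0.11, FDR 0.0431). The difference was not called in 18 of the 24 fits without 1 library. Control lungs lay at 74.0 to 78.5 CPM in KO and 58.2 to 68.2 in WT samples, with a value of 0.33 (SE 0.067, FDR 0.102).

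**Figure D5:**
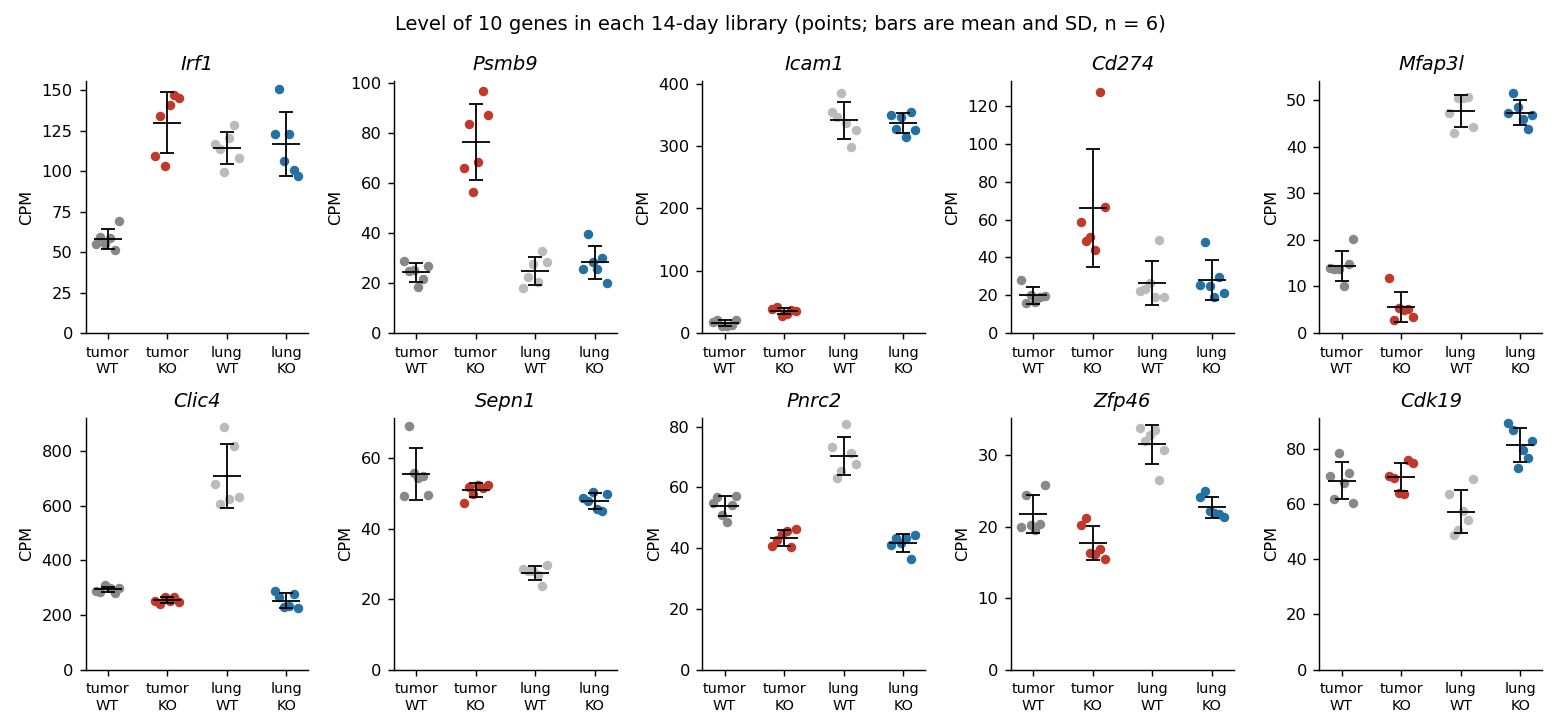
CPM of 10 genes in each 14-day library, by tissue and host genotype, with mean and SD (n = 6). Psmb9 lies at 56.6 CPM or more in KO tumors and at 39.8 or less elsewhere, Irf1 is low in WT tumors alone, Icam1 and Mfap3l lie far lower in tumors than in lungs, and Clic4, Sepn1, Pnrc2, Zfp46 and Cdk19 separate the genotypes in lungs.

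Of the 10 genes called in tumors within 5 Mb of Clic4, Pnrc2 alone was also called in lungs. Themis2, a signaling protein of immune cells, and Sdc3, a syndecan, were limited to the tumor. Themis2 lay at 25.1 to 48.8 CPM in KO and 11.5 to 21.7 in WT tumors, with an effect of 1.201 (SE 0.16) against 0.013 in lungs. The immune genes Cd52, Ptafr, C1qb and Laptm5 rose by 0.96, 0.81, 0.73 and 0.47 in KO tumors without a called difference, as did Wdtc1, Fuca1 and Asap3. The call of Asap3 (FDR 0.0447) held in 14 of 36 alternative fits.

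In control lungs, 6 of 13013 genes tested, or 0.0461%, were called between genotypes by edgeR. DESeq2 called 108, and by edgeR 1981 genes had an unadjusted p under 0.05 and 1193 passed an FDR of 0.25, against 754 and 17 in 14-day lungs. The 6 were Clic4 and Pnrc2, already described, and Hmha1, Marcks, Hc and Ucp2, none of them within 10 Mb of Clic4 or called in 14-day lungs or tumors. None of the 101 genes limited to the tumor was called in control lungs by edgeR, and the median there was -0.11 for the 79 that rose and 0.059 for the 22 that fell.

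The 5 genes with a called difference and no called tissue effect had values of opposite sign in the tissues. Gm10309, Klhl5 and Pxk had tumor values above 0 and lung values below 0, and Mpp6 and Yif1a the converse. Mpp6, a scaffold protein gene, lay at 14.9 to 19.6 CPM in KO and 11.7 to 15.6 in WT lungs and at 64.8 to 92.5 and 78.3 to 101 in KO and WT tumors, both pairs overlapping. Its difference was -0.60 (SE 0.14, FDR 0.0303). Klhl5, an adaptor of ubiquitin ligases, lay at 162 to 186 CPM in KO and 187 to 216 in WT lungs, which did not overlap, with a value of -0.25 (FDR 0.230) there and 0.14 in tumors.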

How the data were processed

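Poly(A) RNA was measured by stranded, paired-end RNA-seq. The authors mapped reads to GRCm38 using STAR and deposited RSEM expected counts per gene, unnormalized and given as integers. FPKM, also deposited, are RSEM's values scaled by transcript length and depth. Every column was mapped to a sample. The genes Rn7s1, Rn7s2 and Rn7sk together held 8.33% (WT lung 5) to 14.07% (KO tumor 1) of a library's counts. With library sizes taken without them, 111 differences between the tissues were called, among them 109 of the 110. Gene positions came from GENCODE M21, which holds 29244 of the 29511 identifiers.

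Counts of the 24 samples at 14 days were fitted with edgeR 4.0.16 (R 4.3.3, TMM normalization, quasi-likelihood test) with 1 mean per group, on the 13095 genes that passed filterByExpr both in the 12 tumors and in the 12 lungs. This filter took the genotypes as groups, so a gene could pass in a tissue through 1 genotype alone. The contrasts were KO minus WT in tumors, the same in lungs, and the first minus the second, each with Benjamini-Hochberg adjustment over all 13095 genes. The SE is the effect divided by the square root of F. Control lungs had a fit of their own. CPM are TMM-normalized. List levels are means of log2(CPM + 1). Genes named are the Clic family, the 8 with the smallest p for the difference per class and direction, up to 3 per list, genes within 5 Mb of Clic4 called in a tissue, and a few seen to be of interest afterwards (such as Tap1, H2-K1, Psmb8 and the control lung calls). The members, lists and rules were chosen with earlier results of these data known. The alternatives included DESeq2 1.42.0 and limma 3.58.1 and are in the closing section, and the fits were tested on simulated counts. Counts of any 2 libraries of 1 group differed beyond sampling noise (60 pairs, chi-square over its degrees of freedom 2.79 to 14.95), so each library was counted as 1 replicate. By the study's text, replicates of a group are separate animals. Some items are not reported here.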

Additional observations from a re-analysis of the deposited data

Results flagged for a closer look

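Among 144 groups of 6 samples checked, 10 had a sample whose gap to the others was large for the range of its group, and chance alone gives about 1 in 20. KO lung 2 was the highest KO lung in 4 gene lists (mean log2(CPM + 1)): antiviral genes at 6.66 against at most 4.07 in the other KO lungs, guanylate-binding proteins at 6.26 against 4.75, immunity-related GTPases at 6.62 against 5.16 and interferon gamma signaling at 5.80 against 5.33. WT lung 5 stood at 6.76 in the antiviral list, against at most 4.73 in the other WT lungs, and was also the highest WT lung in the other 3 lists. Without these 2 lungs, 128 genes had a called difference between the tissues, 111 more positive and 17 more negative in the tumor, and 119 were limited to the tumor. These included 88 of the 110 differences and 82 of the 101 genes limited to the tumor that were called with all libraries.

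WT tumor 2 stood at 3.52 in the B cell list, against at most 0.94 in the other WT tumors, and also had the highest Sepn1 of that group, at 6.13 on log2(CPM + 1). WT tumor 6 was the highest WT tumor in the tumor epithelium list, at 4.29 against 3.37. WT lung 3 was the highest WT lung in the same list, at 5.27 against 5.10. KO tumor 1 stood at 2.48 in the muscle list, against 0.96 in the next KO tumor. The part of these libraries in single gene effects was not tested beyond the fits that left them out.

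A difference of the host effect between tumor and lung was called for 110 genes, by the test of the difference itself.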

How the results depend on the processing

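Of 536 called tumor effects 529, of 7 lung effects 7 and of 110 differences 109 were also called by DESeq2, none with the other sign. DESeq2 called 14 lung effects, 194 differences, 166 genes limited to the tumor, 2 common and 108 control lung effects. At an FDR of 0.25 the counts were 2054 tumor effects, 17 lung effects, 600 differences, 517 limited to the tumor, 6 limited to the lung and 4 common. With a change of at least 1 on the log2 scale they were 147, 1, 61, 53, 1 and 0. Limma voom called 14 lung effects and 5 genes limited to the lung. On log2(FPKM + 1), limma gave 351 tumor effects, 2 lung effects, 53 differences, 48 limited to the tumor and 0 common. On that scale 2 called tumor effects changed sign, Pnrc2 (0.69) and Cfap69 (0.089), as did the lung effect of Pnrc2 (0.038), none called there. Tumors fitted alone gave 350. GC offsets gave 2 common genes, as did leaving out the 2 lungs high in the antiviral list, an alternative chosen after seeing the data.

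Without 1 library at a time, tumor effects ranged from 346 to 799, lung effects from 5 to 9, differences from 46 to 190, genes limited to the tumor from 41 to 174, to the lung from 2 to 3, common from 1 to 2, control lung effects from 1 to 5 and the Clic4 difference from 1.197 to 1.31. The count of differences moved by over 1.5 times without KO lungs 1 (66), 3 (70), 4 (65) or 6 (67), WT lungs 3 (53) or 5 (72), KO tumors 5 (49) or 6 (46), or WT tumors 3 (66), 5 (47) or 6 (190). The genes limited to the tumor then numbered 61, 64, 57, 62, 49, 65, 44, 42, 59, 41 and 174 in the same order. Tumor effects fell to 346 without WT tumor 5. The common genes numbered 2 without KO lung 4, KO tumor 1 or KO tumor 2, and control lung effects 1, 3, 2, 3 and 3 without KO control lungs 2, 3 or 4 or WT control lungs 1 or 3. The cause was not tested.

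Tumors and lungs share replicate numbers. With the number as a block within genotype, 89 differences were called, and 102 with GC offsets as well. Of the 110 differences called without a block, only 74 and 79 were among them. With the number alone as a block there were 92 differences, 551 tumor effects, 7 lung effects, 85 genes limited to the tumor, 2 limited to the lung, and 1 control lung effect. Correlations of same-numbered tumors and lungs were 0.055 to 0.21 in KO and -0.041 to 0.12 in WT mice, and 7 of 12 were the highest for their number, a hint from the data only. The Clic4 difference stayed called, at 1.27 to 1.28.

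Of the differences of single named genes, those that changed sign were not called: Cd22 (0.30 by voom, 0.16 on FPKM, 0.59 without 3 libraries that stood apart, -0.45 to 0.67 without 1 library), Ighm (-0.0034 with RLE size factors, -0.035 without the 2 lungs, -0.21 to 0.96), Cdk1 (-0.00062 on FPKM), Zfp46 (-0.13 on FPKM), Alas2 (-0.36 to 0.15) and Hbb-bt (-0.0072 to 0.54). Depth limits genes such as Cxcl9, at no more than 3.56 CPM in lungs.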

Other observations

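Myh6, a myosin of heart atrial muscle, was not among the genes expressed in both tissues. It lay at 303, 319 and 372 CPM (lowest, median, highest) in 14-day KO lungs and at 413, 515 and 661 in WT lungs, without overlap, and at 0 in all tumors. Of the muscle list, Tnnt2 alone was expressed in both tissues, at 34.2 to 47.6 CPM in KO and 46.5 to 78.3 in WT lungs, with a lung value of -0.57 (edgeR FDR 0.315). Other muscle genes did not follow: the median in KO and WT lungs was 78.7 and 78.1 CPM for the cardiac actin gene Actc1, 8.55 and 8.095 for the creatine kinase gene Ckm and 1.64 and 0.909 for the skeletal actin gene Acta1. The level of the whole muscle list, a mean log2(CPM + 1), overlapped, at 3.48 to 4.07 in KO and 3.62 to 4.04 in WT lungs. Myh6 was chosen after its values were seen.

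Adipocyte genes had a median of 0.69 in tumors and -0.24 in lungs over 7 genes. Cidec, a lipid droplet protein, and Lpl, the lipoprotein lipase, rose in KO tumors by 0.92 (edgeR FDR 0.0292) and 0.56 (FDR 0.0383), and their differences from the lung were not called. They were 2 of the 7, against 3.05% of all genes. At an unadjusted p under 0.05, 6 of the 7 had a tumor effect and 6 a difference, against 2310 and 1511 of 13095 genes. DESeq2 called 2 and 0. Cell cycle genes had tumor values below 0 for all 17 measured, with a median of -0.10, and none was called by edgeR or DESeq2 or had an unadjusted p under 0.05 in tumors. By edgeR 4.09% of all genes were called in tumors, and 0 of 17 is near that share.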
